A study of Mus musculus with 2 samples.

Results

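The regions described are 3 imprinted domains of the mouse genome in which the methylated copy of the control region is the paternal one: H19-Igf2 on chromosome 7, Dlk1-Meg3-Rtl1 on chromosome 12 and Rasgrf1 on chromosome 9. Their members are the MeDIP-seq peaks that overlapped, by at least 1 bp, the mm9 windows from 149755 to 149860 kb on chromosome 7, from 110680 to 110840 kb on chromosome 12 and from 89765 to 89925 kb on chromosome 9. The windows held 57 of the 166438 peaks listed for regular chow and 68 of the 175773 peaks listed for high-fat diet, 125 peaks in all. The windows and the control region positions, given to the nearest kb, were taken as stated and were not read from an mm9 gene annotation.

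The tissue was epididymal white fat, a visceral depot next to the testis, taken from males of the inbred strain C57BL/6J, with no altered gene or transgene named. From 4 weeks of age they ate regular chow (the STD group) or, in the HFD group, a high-fat diet in which fat supplied 60% of the calories, for 5 months. In MeDIP-seq, an antibody captures DNA fragments that carry 5-methylcytosine, which are then sequenced, and a peak is a stretch where such fragments pile up. There was 1 library per diet, with the number of mice behind it not stated in the labels. The lists give positions without counts, so sequencing depth is unknown. No difference between the diets therefore has a replicate check and no test is given. Intervals are exact 95% intervals and cover counting error only. In whole tissue a change of methylation and a change in the mixture of cells cannot be told apart.

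An imprinted gene is expressed from the copy inherited from 1 parent only, and a control region that is methylated on 1 parental copy sets which copy that is. At H19-Igf2 the unmethylated maternal control region binds the insulator protein CTCF, which keeps enhancers from Igf2, a fetal growth factor gene, and leaves them to H19, a long noncoding RNA gene. At Dlk1-Meg3 the intergenic control region separates Dlk1, which encodes the preadipocyte protein Pref-1 that restrains adipocyte differentiation, from the maternally expressed noncoding RNA gene Meg3. Rtl1, a retrotransposon-derived gene needed in the placenta, lies beyond Meg3 and is expressed from the paternal copy. Rasgrf1 encodes a Ras exchange factor that is expressed from the paternal copy in brain, with its control region upstream of the gene. In a gene table of a later build (GRCm38.p6) the order of rising coordinates was Mrpl23, Nctc1, H19, Igf2 and Ins2 on chromosome 7, and Begain, Dlk1, Meg3, Rtl1, Rian, Mirg and Dio3 on chromosome 12. The peaks themselves were not placed in exons, introns or promoters, because that table follows another build than the lists.

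Methylation in mammals falls mainly on CpG dinucleotides, so the number of CpGs in a fragment limits what the antibody can capture. RefSeq start-site sequences (GRCm38.p6, 250 bases before to 50 bases after the start, 5′ to 3′ on the gene's strand) matched 4 of the 6 genes by symbol. The sequence with the most CpGs of each matched gene is shown with its CpGs in capitals, to show how unequally these starts offer sites to the assay. They are Igf2 (chr7:142658755-142659054, minus strand), Dlk1 (chr12:109452573-109452872, plus strand), Meg3 (chr12:109540746-109541045, plus strand) and Rasgrf1 (chr9:89909525-89909824, plus strand).
Igf2: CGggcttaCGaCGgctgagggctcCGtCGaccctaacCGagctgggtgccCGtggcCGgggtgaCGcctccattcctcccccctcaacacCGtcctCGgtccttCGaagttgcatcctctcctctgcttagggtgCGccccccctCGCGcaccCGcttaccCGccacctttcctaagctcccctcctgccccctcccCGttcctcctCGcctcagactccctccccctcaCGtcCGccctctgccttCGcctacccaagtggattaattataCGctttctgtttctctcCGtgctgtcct
Dlk1: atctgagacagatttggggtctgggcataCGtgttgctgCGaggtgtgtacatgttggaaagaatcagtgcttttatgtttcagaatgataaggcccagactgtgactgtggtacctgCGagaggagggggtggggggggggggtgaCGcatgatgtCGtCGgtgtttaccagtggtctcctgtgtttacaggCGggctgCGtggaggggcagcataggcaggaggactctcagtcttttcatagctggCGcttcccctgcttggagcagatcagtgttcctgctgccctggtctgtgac
Meg3: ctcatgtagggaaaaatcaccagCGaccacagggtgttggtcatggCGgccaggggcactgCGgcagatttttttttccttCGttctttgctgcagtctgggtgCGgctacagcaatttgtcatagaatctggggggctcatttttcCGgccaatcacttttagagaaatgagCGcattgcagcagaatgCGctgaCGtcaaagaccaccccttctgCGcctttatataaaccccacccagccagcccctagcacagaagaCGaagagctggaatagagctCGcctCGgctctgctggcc
Rasgrf1: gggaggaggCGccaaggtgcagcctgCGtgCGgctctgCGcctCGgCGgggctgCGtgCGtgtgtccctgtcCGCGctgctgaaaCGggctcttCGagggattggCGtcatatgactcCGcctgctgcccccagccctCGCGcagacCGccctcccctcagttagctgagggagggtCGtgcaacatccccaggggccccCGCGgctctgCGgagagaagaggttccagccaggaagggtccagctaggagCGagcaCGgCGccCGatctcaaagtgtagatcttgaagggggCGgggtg
Rasgrf1 had 26 CpGs in its 300 bases and Igf2 had 24. Meg3 had 13 and Dlk1 had 9, against a median of 7 over 32851 RefSeq starts. Igf2 has 3 further starts in the table, with 14, 7 and 2 CpGs, and Meg3 has another with 1. Thus the starts of a single gene ranged from CpG-poor to CpG-rich. These sequences were not set against the peaks.

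All 3 control regions carried methylated peaks with both diets. A peak was counted at a control region when it overlapped the stated position widened by 1 kb on each side, which gave 4 STD and 5 HFD peaks. With no flank there were 3 STD and 4 HFD peaks, and with a 3 kb flank there were 5 of each. With the 1 kb flank, the H19-Igf2 region (149766 to 149769 kb) held 1 peak per library and the Dlk1-Meg3 region (110766 to 110770 kb) 2 per library. The Rasgrf1 region (89774 kb) then held 1 STD and 2 HFD peaks. At the stated positions alone, the Dlk1-Meg3 region held 1 STD peak and the Rasgrf1 region 1 HFD peak. Over the whole chromosome, having a peak in both lists was not the rule for stretches as long as the widened regions. It was found in 21.6% of the 29880 consecutive 5 kb stretches of chromosome 7, in 24.5% of the 19699 stretches of 6 kb on chromosome 12, and in 17.6% of the 40352 stretches of 3 kb on chromosome 9. The domains themselves were set against the median window of the same length on their chromosome. STD counts were 2.4 times it at H19-Igf2 (interval 1.24 to 4.19) and 4.29 times at Dlk1-Meg3-Rtl1 (2.89 to 6.12). At Rasgrf1 the STD count was 1.36 times the median, with an interval that includes 1 (0.763 to 2.25). Peaks were thus denser than in the median window at H19-Igf2 and Dlk1-Meg3-Rtl1, which is not shown for Rasgrf1. No share is given for stretches within the domains, so the control regions are not shown to stand out from their own domains.

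The peaks at the H19-Igf2 control region were narrow and nearly identical. The STD peak, chr7:149767525-149767803 (mm9), was 279 bp wide. The HFD peak, chr7:149767499-149767785, was 287 bp wide and shared 261 bp with it. Both lay near the middle of the stated region. Only 18.4% of STD peaks and 30.5% of HFD peaks in the whole lists were narrower, and the narrowest were 263 bp and 255 bp. No other peak lay within 1 kb of the region in either list.

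At the Dlk1-Meg3 control region the HFD library had a broad peak where the STD library had a pair. The STD peaks were chr12:110764846-110765288, 443 bp wide, and chr12:110765412-110766057, 646 bp wide. The HFD peak, chr12:110764843-110766057, was 1215 bp wide and covered both, sharing 1089 bp with them. It started 3 bases before the STD pair and ended on the same base, so the extent was alike and the peaks differed in whether the stretch between them was included. This was the widest member in either list, and 99.9% of all HFD peaks were narrower. A further HFD peak, chr12:110766399-110766690 (292 bp), had no STD partner and lay 0.341 kb from the nearest STD peak. All of these peaks lay at the Dlk1-facing edge of the stated position. Within that position itself 58 bp were covered by STD peaks and 350 bp by HFD peaks, and the next peak toward Meg3 began 9.62 kb (STD) and 7.89 kb (HFD) beyond it. The absence of a listed peak does not show absence of methylation.

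At the Rasgrf1 control region the shared peak was wider with STD. The STD peak, chr9:89774403-89774840, was 438 bp wide. The HFD peak, chr9:89774479-89774774, was 296 bp wide and lay wholly inside the STD peak. A second HFD peak, chr9:89773344-89773635 (292 bp), lay outside the stated position but within its flank. It had no STD partner and was 0.767 kb from the nearest STD peak. The library with the narrower shared peak was therefore the one with an additional peak beside it. With 1 library per diet, neither difference can be assigned to diet.

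**Figure D1:**
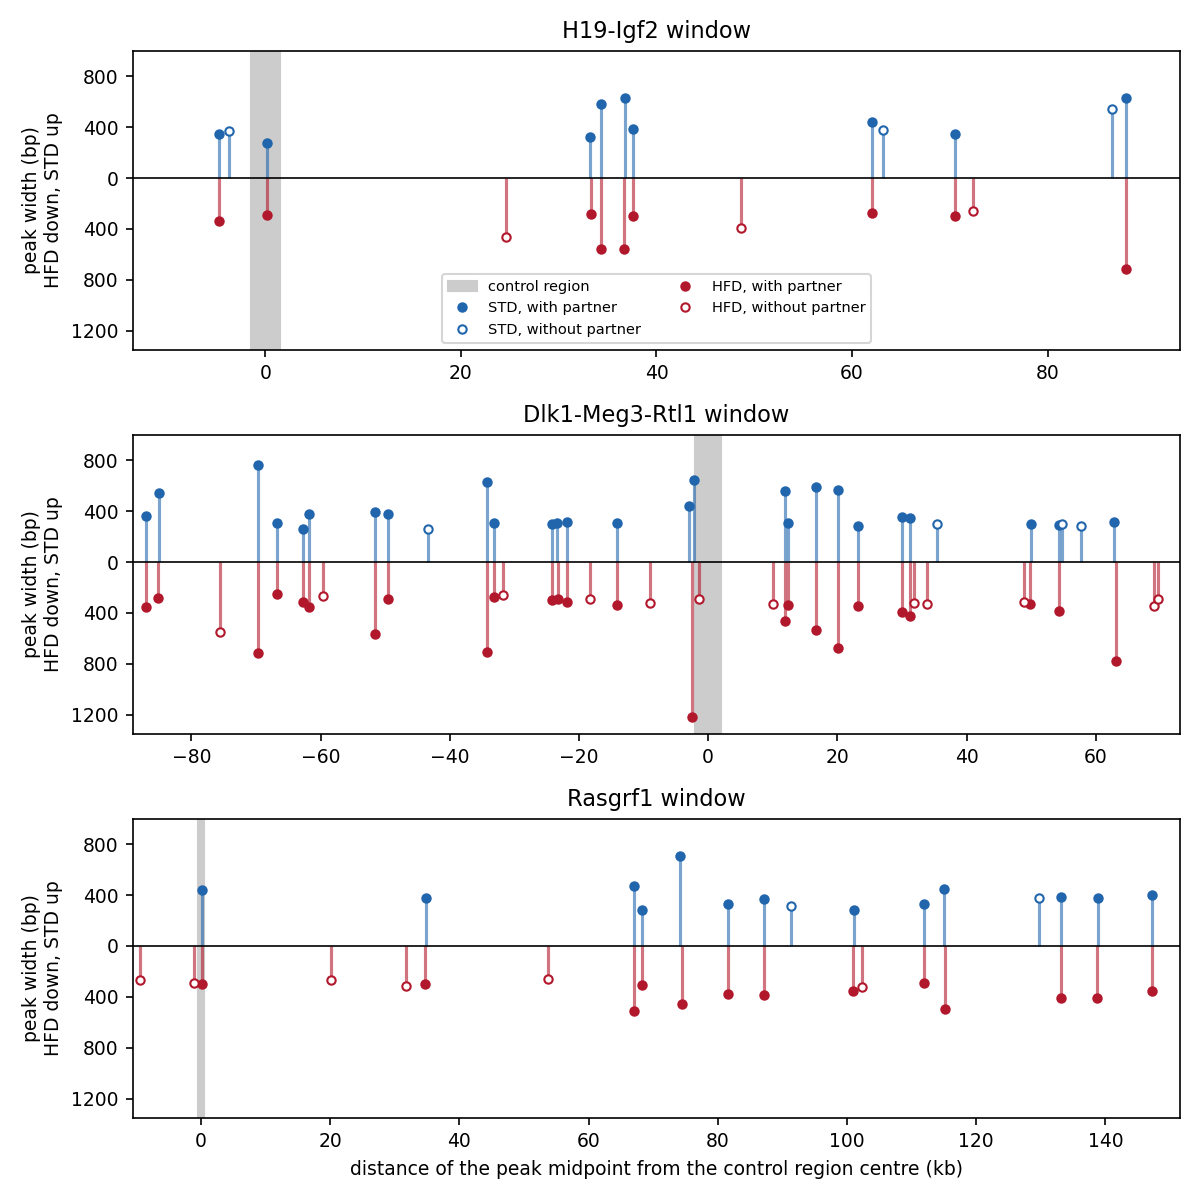
Peaks of the 3 windows by distance of their midpoint from the control region centre (kb, horizontal axis), with peak width in bp as the length of each line, STD upward and HFD downward; filled points have an overlapping peak in the other list, open points have none, and grey marks the stated control region. The tallest line is the HFD peak of 1215 bp at the Dlk1-Meg3 control region, and the H19-Igf2 and Rasgrf1 regions are followed by long stretches with few peaks.

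Over the whole windows, control regions included, peaks were matched between the lists, where a partner shares at least 1 bp with the peak it is matched to. Over the 3 windows 48 of 57 STD peaks and 47 of 68 HFD peaks had a partner. Without a partner were 15.8% of the STD peaks (interval 7.48 to 27.9), where the whole STD list gave 26.5%. Among the HFD peaks 30.9% were without a partner (20.2 to 43.3), where the whole HFD list gave 30.3%. Both background values lie inside the intervals, so the shares of these domains were not distinguishable from those of all peaks. Merged where they overlapped, the peaks formed 77 separate loci, of which 47 were found with both diets, 9 with STD only and 21 with HFD only. No genome-wide count of merged loci is given beside these. In the whole lists, too, more HFD peaks (53174) than STD peaks (44070) were without a partner. The share found with both diets was alike across domains, at 60% for H19-Igf2, 61.0% for Dlk1-Meg3-Rtl1 and 61.9% for Rasgrf1.

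**Figure D2:**
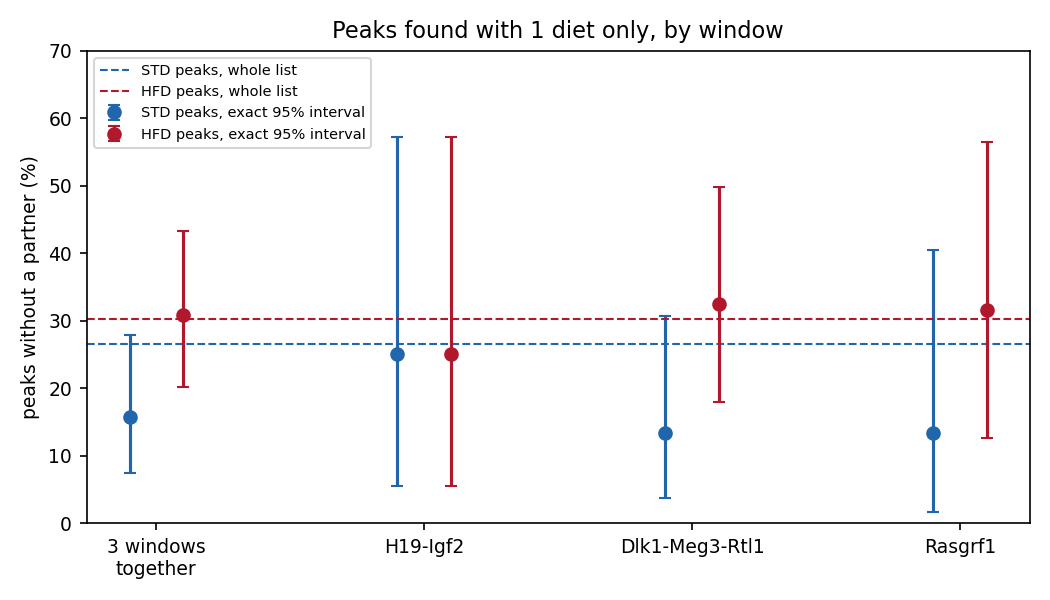
Percentage of peaks without an overlapping peak in the other list (vertical axis) for the 3 windows together and each window, with exact 95% binomial intervals for 1 library per diet; dashed lines mark the whole lists, at 26.5% (STD) and 30.3% (HFD). The STD line lies within every STD interval and the HFD line within every HFD interval.

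In number the HFD list had 1.19 times as many peaks as the STD list in these windows (interval 0.827 to 1.73), and over the genome it had 1.06 times as many. In covered bases the ratio was 1.16, with 22.8 kb covered by STD and 26.4 kb by HFD peaks, against 1.02 over the genome. Bases covered in both lists made up 0.559 of those covered in either (Jaccard index), against 0.503 over the genome. The ratio of number was 0.978 when peaks under 300 bp were left out, a limit for which no genome ratio is given. Without the chromosome 12 window the ratio of covered bases was 1.01.

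Peak widths overlapped broadly between the libraries. STD members ranged from 263 to 766 bp with a median of 368 bp, and HFD members from 255 to 1215 bp with a median of 329 bp. The medians of the whole lists were 332 bp and 321 bp. Members with a partner had medians of 371 bp (STD) and 354 bp (HFD), and those without had 316 bp and 314 bp. Peaks found with both diets were thus the wider ones at the median in these domains, as in the whole lists.

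The H19-Igf2 window carried 12 peaks in each library, 9 of them with a partner in each. Its widest peaks were shared and lay far from the control region, on its Igf2 side. At the far end, 88.0 kb from the control region centre, the STD peak chr7:149855200-149855831 was 632 bp and its HFD partner chr7:149855167-149855879 was 713 bp wide. A cluster of shared peaks lay from 33.3 to 37.6 kb above the centre. In it the STD peak chr7:149803958-149804588 measured 631 bp and its HFD partner 558 bp. The STD peak chr7:149801520-149802104 measured 585 bp and its HFD partner 556 bp. The same 3 loci were the widest in both lists.

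Among the 9 peak pairs with exactly 1 partner on each side in this window, the HFD peak was narrower in 7 and wider in 2, with a median difference of -39 bp (HFD minus STD, from -164 to 81 bp). The largest narrowing was at chr7:149829332, with 442 bp in STD and 278 bp in HFD. Genome-wide the HFD peak was narrower in 56.0% of 120322 such pairs, with a median difference of -8 bp, which is also the difference between the narrowest widths of the 2 lists. Covered bases in this window, counted over peaks with and without a partner, were lower with HFD, 4.72 kb against 5.25 kb, a ratio of 0.899. With both lists limited to peaks of 300 bp or wider, 36.4% of the STD peaks had a partner instead of 75%. The HFD over STD ratio of number was then 0.545 instead of 1. The same limit lowered the STD share from 86.7% to 72.7% at Dlk1-Meg3-Rtl1 and from 86.7% to 69.2% at Rasgrf1. No value of the whole lists under this limit is given, so neither drop can be called particular to this window.

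Of the 6 peaks found with 1 diet only in this window, 5 were wider than the median of their list. With STD only, chr7:149763574-149763941 (368 bp) lay on the H19 side of the control region, at -3.74 kb from its centre, and 0.623 kb from the nearest HFD peak. The others were chr7:149830457-149830831 (375 bp), 0.812 kb from an HFD peak, and chr7:149853811-149854350 (540 bp, wider than 91.8% of STD peaks), 0.816 kb from an HFD peak. All 3 STD peaks without a partner had an HFD peak within 1 kb. With HFD only, chr7:149791865-149792329 (465 bp, wider than 87.2% of HFD peaks) was 8.26 kb from the nearest STD peak and chr7:149815949-149816337 (389 bp) was 10.7 kb from it. The third, chr7:149839718-149839975, was 258 bp wide, only 3 bp above the narrowest HFD width. The wider HFD peaks without a partner thus lay several kb from the nearest STD peak. No background of such distances is given, so this contrast with the STD peaks rests on these few peaks alone.

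The Dlk1-Meg3-Rtl1 window was the densest of the 3, with 30 STD and 37 HFD peaks in 160 kb. That is 18.7 STD and 23.1 HFD peaks per 100 kb, against 11.4 in both libraries at H19-Igf2, and 9.37 and 11.9 at Rasgrf1. Peaks lay on both sides of the control region. On the Dlk1 side there were 15 STD and 19 HFD peaks in 85 kb, and on the Meg3-Rtl1 side 13 and 16 in 69 kb. No partner was found for 13.3% of its STD peaks (interval 3.76 to 30.7) and for 32.4% of its HFD peaks (interval 18.0 to 49.8), and these intervals include the backgrounds of 26.5% and 30.3%.

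Several of the broadest shared peaks of all 3 domains lay on chromosome 12. On the Dlk1 side, at -69.7 kb from the control region centre, the STD peak chr12:110697889-110698654 was 766 bp, the widest STD member, and its HFD partner was 712 bp. Nearer to the control region, chr12:110733382-110734009 was 628 bp with STD and its partner 703 bp with HFD. Both loci were broad with both diets. On the Meg3-Rtl1 side the clearest difference in width was at chr12:110830689-110831467 (HFD), which was 779 bp wide where its STD partner, chr12:110830700-110831016, was 317 bp. Both began at nearly the same base and the HFD peak extended farther toward higher coordinates. In the opposite direction, the STD peak at chr12:110682659 was 545 bp and its HFD partner 286 bp. Over the 24 pairs of this window the HFD peak was wider in 13 and narrower in 11, with a median difference of 16 bp (HFD minus STD).

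Of the 12 HFD peaks without a partner on chromosome 12, the widest was chr12:110692180-110692725, 546 bp wide, 5.16 kb from the nearest STD peak and at -75.5 kb from the control region centre, on the Dlk1 side. It was the widest peak found with 1 diet only in any of the 3 windows. The other 11 measured from 262 to 343 bp. Those at or above the median of the HFD list were chr12:110758861-110759185 (325 bp), chr12:110777886-110778216 (331 bp), chr12:110799692-110800016 (325 bp), chr12:110801711-110802036 (326 bp) and chr12:110836797-110837139 (343 bp). They were scattered over both sides of the control region. The 4 STD peaks without a partner measured 263, 298, 301 and 281 bp, all below the STD median of 332 bp. Peaks without a partner in this window were therefore mostly near or below the median width of their list.

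**Figure D3:**
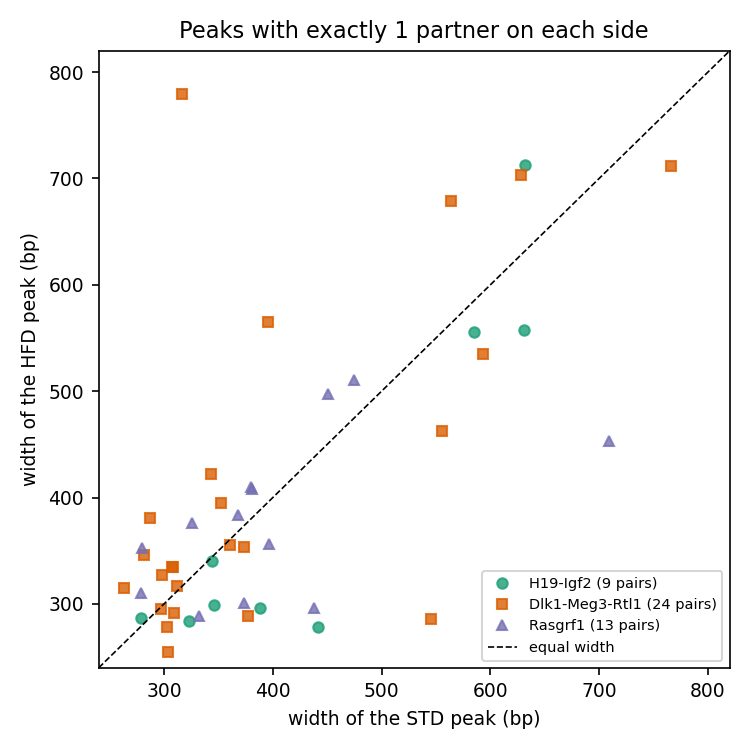
Width of the STD peak (bp, horizontal axis) against that of its HFD partner (bp, vertical axis) for the 46 pairs with exactly 1 partner on each side, by window, with 1 library per diet; the dashed line marks equal width. The points farthest from the line are the chromosome 12 pairs of 317 and 779 bp and of 545 and 286 bp, and the Rasgrf1 pair of 709 and 453 bp.

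The Rasgrf1 window held 15 STD and 19 HFD peaks, 13 of each with a partner. Most lay well beyond the control region, in the part of the window from 67.1 kb above it. The shared locus that was widest with STD was 74.2 kb above the centre, where the STD peak chr9:89848351-89849059 was 709 bp and its HFD partner chr9:89848658-89849110 was 453 bp. It was followed by chr9:89841339-89841813 (STD, 475 bp), whose HFD partner was 511 bp, and by chr9:89889346-89889796 (STD, 451 bp), whose HFD partner was 497 bp. The locus widest with STD was thus narrower with HFD, and the others named here were wider with HFD. In the HFD list both of those others were wider than it, so the order of width differed between the lists. Over the 13 pairs the HFD peak was wider in 8 and narrower in 5, with a median difference of 27 bp and a range from -256 to 73 bp.

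The 2 STD peaks without a partner in the Rasgrf1 window were chr9:89904086-89904465 (380 bp), 2.98 kb from an HFD peak, and chr9:89865605-89865920 (316 bp), 3.79 kb from it. The 6 HFD peaks without a partner measured from 262 to 326 bp, and the widest was chr9:89876652-89876977. They included chr9:89794499-89794768 (270 bp), 14.3 kb from the nearest STD peak, and chr9:89828117-89828378 (262 bp), 13.0 kb from it. These were narrow peaks in a stretch where the STD list was sparse. Counting only peaks more than 50 bp above the narrowest width of their list turned the HFD over STD ratio of number in this window from 1.27 to 0.923, whereas at Dlk1-Meg3-Rtl1 the same limit moved it from 1.23 to 1.73.

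Stretches without peaks lay on both sides of the control regions, and those toward higher coordinates are given first. At H19-Igf2 no STD peak was listed for 32.8 kb after the peak in the control region and no HFD peak for 24.1 kb. At Rasgrf1 the corresponding stretches were 34.3 kb (STD) and 19.7 kb (HFD). In these 2 windows they were the longest gaps in both lists. Gaps of such length were not exceptional: 90.6% and 87.1% of autosomal gaps were shorter at H19-Igf2, and 91.1% and 83.5% at Rasgrf1. At Dlk1-Meg3-Rtl1 the stretch after the control region peaks was shorter, 13.6 kb (STD) and 11.2 kb (HFD), with 72.9% and 68.8% of autosomal gaps shorter. The longest gaps of that window, 14.7 kb (STD) and 14.8 kb (HFD), were little longer and lay elsewhere on the Dlk1 side, at positions that differed between the lists. Toward lower coordinates, the next peak outside the flank lay 2.06 kb (STD) and 3.05 kb (HFD) from the stated H19-Igf2 region. These distances were 11.9 kb (STD) and 6.81 kb (HFD) at Dlk1-Meg3, and 24.3 kb (STD) and 8.85 kb (HFD) at Rasgrf1. Peak-free stretches were thus not confined to the side of higher coordinates.

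The domains were then set beside all consecutive windows of the same length on their own chromosome. At H19-Igf2, 12 peaks per library compared with a median of 5 peaks per 105 kb window on chromosome 7 in either list, and 79.1% (STD) and 77.2% (HFD) of 1423 windows held fewer. The Dlk1-Meg3-Rtl1 window stood at the upper end of chromosome 12. Its 30 STD peaks compared with a median of 7 and a highest value of 34 over 738 windows of 160 kb. Its 37 HFD peaks compared with a median of 8 and a highest value of 36. Of these windows 98.1% held fewer STD peaks and all held fewer HFD peaks. The Rasgrf1 window was closer to its chromosome's median, with 15 STD peaks against 11 and 19 HFD peaks against 12. Against the median window of all autosomes, the STD and HFD counts at Rasgrf1 were 1.67 and 1.9 times as high. Those at H19-Igf2 were then both 2 times as high, so the contrast between these domains was small. At Dlk1-Meg3-Rtl1 the values were 3.33 and 3.7.

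Neighbouring stretches narrowed these contrasts. The windows of the same length just before and just after Dlk1-Meg3-Rtl1 held 16 and 17 STD peaks, and 13 and 17 HFD peaks, so the domain had 1.82 and 2.47 times their mean. At H19-Igf2 the adjoining windows held 10 and 1 STD peaks and 12 and 5 HFD peaks, and the domain had 2.18 and 1.41 times their mean. At Rasgrf1 they held 10 and 14 STD peaks and 12 and 18 HFD peaks. The Dlk1-Meg3-Rtl1 domain was therefore denser than its neighbours in both libraries, whereas the other domains had a neighbour with a count close to their own. Density was taken as listed, without correction for CpG content or read mappability, and does not measure methylation level.

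**Figure D4:**
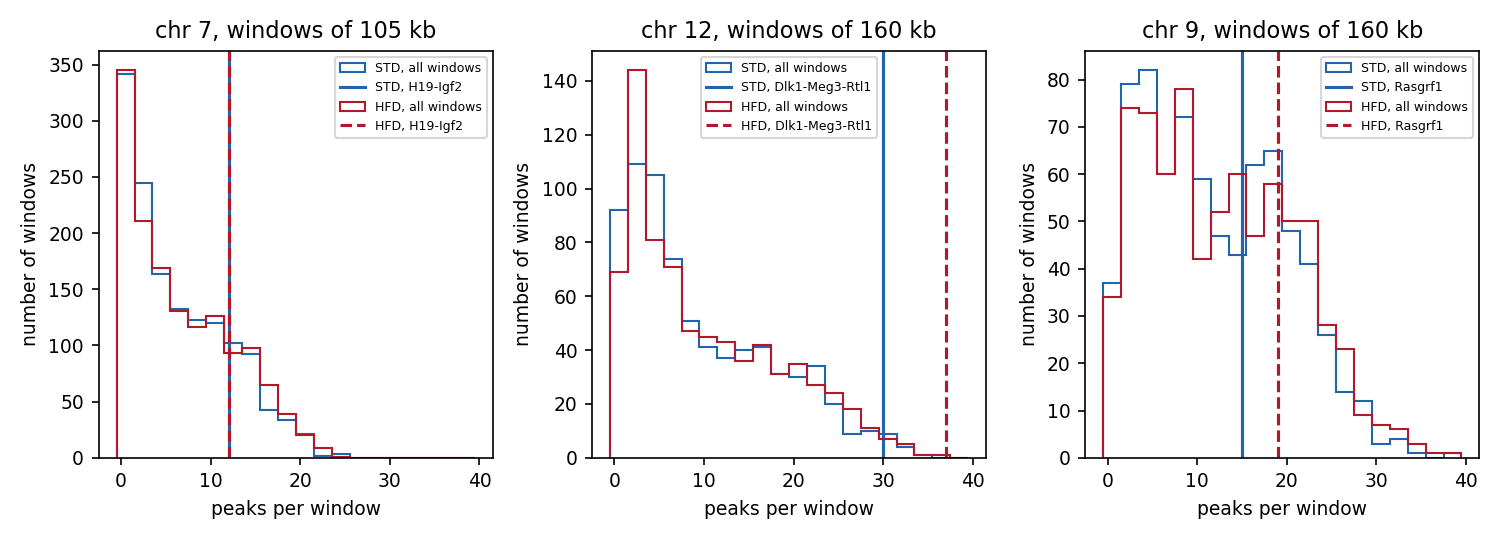
Number of consecutive windows (vertical axis) by number of peaks per window (horizontal axis) on chromosomes 7, 12 and 9, for windows as long as each domain; outlines show the STD and HFD lists, and vertical lines mark the domain itself, 1 value per library. The lines for Dlk1-Meg3-Rtl1, at 30 and 37 peaks, lie at the right end of the chromosome 12 distribution, and those for H19-Igf2 coincide at 12.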

How the data were processed

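MeDIP-seq peaks were analysed in 2 libraries, 1 per diet, grouped by the diet named in the labels. BWA and the genome build mm9 are named in the submitters' processing notes. No peak caller, threshold, input control or pooling scheme is given in the sources used here. As deposited by the authors there is 1 list per library, with 4 columns (chromosome, start, end, name), whose only measurements are positions. Depth is unknown.

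The members and all comparisons were chosen with earlier results of these data known. Positions are printed counting from 1. The 6 mitochondrial peaks per list were left out. Partners (overlap of at least 1 bp) were counted in Python 3.11.15 with numpy 2.4.6, pandas 2.3.3 and scipy 1.17.1, checked against bedtools 2.31.1 and tested on simulated lists, and figures were drawn with matplotlib 3.10.9. Shares have exact 95% binomial (Clopper-Pearson) intervals, and the ratio of numbers has an interval from the exact binomial interval of the HFD share of peaks. Ratios to the median window have an interval from the exact Poisson interval of the domain's count. Peaks of the windows used as background were assigned by midpoint. Peaks described singly are those at the control regions, the 3 widest of each window and list, and those without a partner that are at least as wide as the median of their list. Others named, chosen after their values were seen, are the pairs with the largest differences in width and the narrow peaks without a partner. Alternatives were other overlap rules, limits on width, merging across gaps of up to 500 bp, other flanks and other windows. Leaving out each domain and the adjoining windows were added after seeing the data.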

Additional observations from a re-analysis of the deposited data

How the results depend on the processing

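The share of peaks with a partner, 84.2% (STD) and 69.1% (HFD), stayed within its counting interval under other overlap rules and without each domain. It left it when narrow peaks were removed from both lists, since partners then also had to be wide: 63.0% (STD) for peaks of at least 300 bp, and 64.1% (STD) and 54.5% (HFD) for peaks over 50 bp above the narrowest width. No whole-list share or ratio is given under either width limit, so these changes cannot be called particular to the domains. The HFD over STD ratio of number, 1.19, turned to 0.978 for peaks of at least 300 bp and was 1.13 for peaks over 50 bp above the narrowest width. In the Rasgrf1 window it turned from 1.27 to 0.923 for peaks over 50 bp above the narrowest width, and the ratio of covered bases turned from 1.11 to 0.938 and 0.882 under the same 2 limits. At Dlk1-Meg3-Rtl1 the limits kept the direction: the ratio of number, 1.23, was 1.18 and 1.73, and that of covered bases, 1.30, was 1.28 and 1.66. At H19-Igf2 both limits lowered the ratio of number from 1 to 0.545 and that of covered bases from 0.899 to 0.607. The ratio of covered bases over all windows, 1.16, was 1.02 and 1.13 under those limits, 1.19 after merging, and 1.24, 1.01 and 1.17 without H19-Igf2, Dlk1-Meg3-Rtl1 and Rasgrf1. The Jaccard index, 0.559, was 0.452 and 0.430 under the limits, 0.558 after merging, and 0.567, 0.544 and 0.560 without each domain in the same order. The median width differed by -39 bp (HFD minus STD), and by -31 bp above the narrowest widths. Density at Dlk1-Meg3-Rtl1, 4.29 (STD) and 4.63 (HFD) times the median window, was 1.82 and 2.47 times the mean of the adjoining windows. The cause of these shifts was not tested. A width limit removes narrow partners by construction, but this does not set the direction of a ratio between the lists. No paired analysis was possible because a single library stands for each group, which also leaves no replicate to omit. Unknown depth limits what the absence of any peak shows.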
